A study of Mus musculus with 13 samples.

Results

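The genes described here are 6 members of the MHC class II antigen presentation pathway, H2-Aa, H2-Ab1, H2-Eb1, H2-DMa, Cd74 and Ciita, picked out by gene symbol, with earlier results of these data known. They are 6 of the 27141 genes in the tables, and all 6 passed the filter on low counts that left 19884 genes for testing. RNA-seq was carried out on dHeps, damaged hepatocytes that were isolated by collagenase perfusion from wild-type mice injured with carbon tetrachloride (CCl4), and that were then kept for 16 days in a serum-free hepatocyte maintenance medium. The 7 culture conditions were the solvent DMSO, the 5C cocktail, and 5C with a single compound left out, written 5C-G without the ROCK inhibitor GSK429286A, 5C-C without CID755673, which inhibits protein kinase D, 5C-E without the AMPK activator ETC-1002, 5C-F without forskolin, which raises cyclic AMP through adenylate cyclase, and 5C-S without Salidroside. The doses and the age of the mice are not in the labels. Every group came from injured mice, so no uninjured liver enters any comparison. The group 5C-S had 1 library and each of the other groups had 2, called A and B in the order of their columns.

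MHC class II molecules display peptides from endocytosed proteins to CD4+ T cells. An alpha and a beta chain pair in the endoplasmic reticulum with the invariant chain, the product of Cd74, which blocks the groove and directs the complex to endosomes. Cathepsins trim the invariant chain there to a short peptide, and the H2-DM heterodimer exchanges that peptide for antigen. Ciita encodes the transactivator CIITA, which binds no DNA itself and is recruited to class II promoters by RFX, CREB and NF-Y assembled on a conserved array of X and Y boxes. In the liver, class II is a feature of macrophages, dendritic cells, B cells and endothelium, and interferon gamma can switch it on in many other cell types.

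The 4 H2 members lie together on chromosome 17 of GRCm39, within 197.1 kb that hold 12 annotated protein-coding genes. H2-DMa is at chr17:34338515-34358958 on the plus strand, H2-Ab1 at chr17:34476663-34488393 on the plus strand, H2-Aa at chr17:34493404-34506798 on the minus strand and H2-Eb1 at chr17:34504236-34535648 on the plus strand. Cd74 lies apart at chr18:60936899-60945731 and Ciita at chr16:10297923-10347694, both on the plus strand. Annotated exons of H2-Aa and H2-Eb1 share 118 bases on opposite strands, those of H2-DMa and Brd2 share 510 bases, and those of Ciita and Dexi share 633 bases. How the counting treated strand is not given in the sources used here, so reads from those shared bases cannot be assigned with certainty.

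The promoter stretches of the 4 H2 genes are shown because they carry the Y box, to which NF-Y binds, within 50 bases of the transcription start. They were read from GRCm39, upstream of the canonical transcript and on the strand of the gene, with the Y box TGATTGG and the X box core GCAAC in capitals.

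H2-Aa: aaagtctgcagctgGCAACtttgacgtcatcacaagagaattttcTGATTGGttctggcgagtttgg

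H2-Ab1: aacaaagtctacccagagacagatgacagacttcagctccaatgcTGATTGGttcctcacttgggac

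H2-Eb1: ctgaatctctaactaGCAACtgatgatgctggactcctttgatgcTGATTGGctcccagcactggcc

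H2-DMa: tatacgcttctgTGATTGGtttagccgtgg

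These stretches lie at chr17:34506826-34506892 on the minus strand for H2-Aa, and on the plus strand at chr17:34482109-34482175 for H2-Ab1, chr17:34524735-34524801 for H2-Eb1 and chr17:34354507-34354536 for H2-DMa. The first base of TGATTGG stood 50, 29, 33 and 41 bases before the start of H2-Aa, H2-Ab1, H2-Eb1 and H2-DMa. These 7 letters, searched on both strands in the 250 bases before the start, were found in 8.32% of 21757 protein-coding promoters, in all 4 H2 members, and not in the windows of Cd74 or Ciita. GCAAC alone was found in 29% of promoters, and ATTGG, which lies inside TGATTGG, in 36.5%. GCAAC followed by ATTGG after 26 to 30 bases was found in 0.193% of promoters, among them H2-Aa, with a gap of 28 bases, and H2-Eb1, with a gap of 27 bases. The H2-Aa stretch also holds the CREB-type letters TGACGTCA. The H2-DMa stretch is kept short because an exon of another annotated transcript reaches into it. The motifs were chosen with the sequences in view, and a match is a description of letters only.

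All 6 genes were listed with reads in every library, at low levels. Library totals ran from 30195867 to 45491932 counts, and the 6 members together had a depth-scaled count between 18.7 and 47.7 CPM. On the FPKM scale, which divides by gene length, the mean over the 13 libraries was 4.90 for Cd74, 2.41 for H2-Ab1, 2.21 for H2-DMa, 1.02 for H2-Eb1, 0.396 for H2-Aa and 0.0775 for Ciita. For comparison, the hepatocyte gene Alb ran from 2122 to 18255 FPKM across the libraries and the class I heavy chain gene H2-K1 from 121 to 289 FPKM, so hepatocyte transcripts were abundant and H2-K1 far exceeded each class II member in every library. Counts of Ciita were only 6 to 56 per library and those of H2-Aa 13 to 184, whereas Cd74 had 71 to 609. Counting error alone is therefore large for Ciita and H2-Aa.

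**Figure D1:**
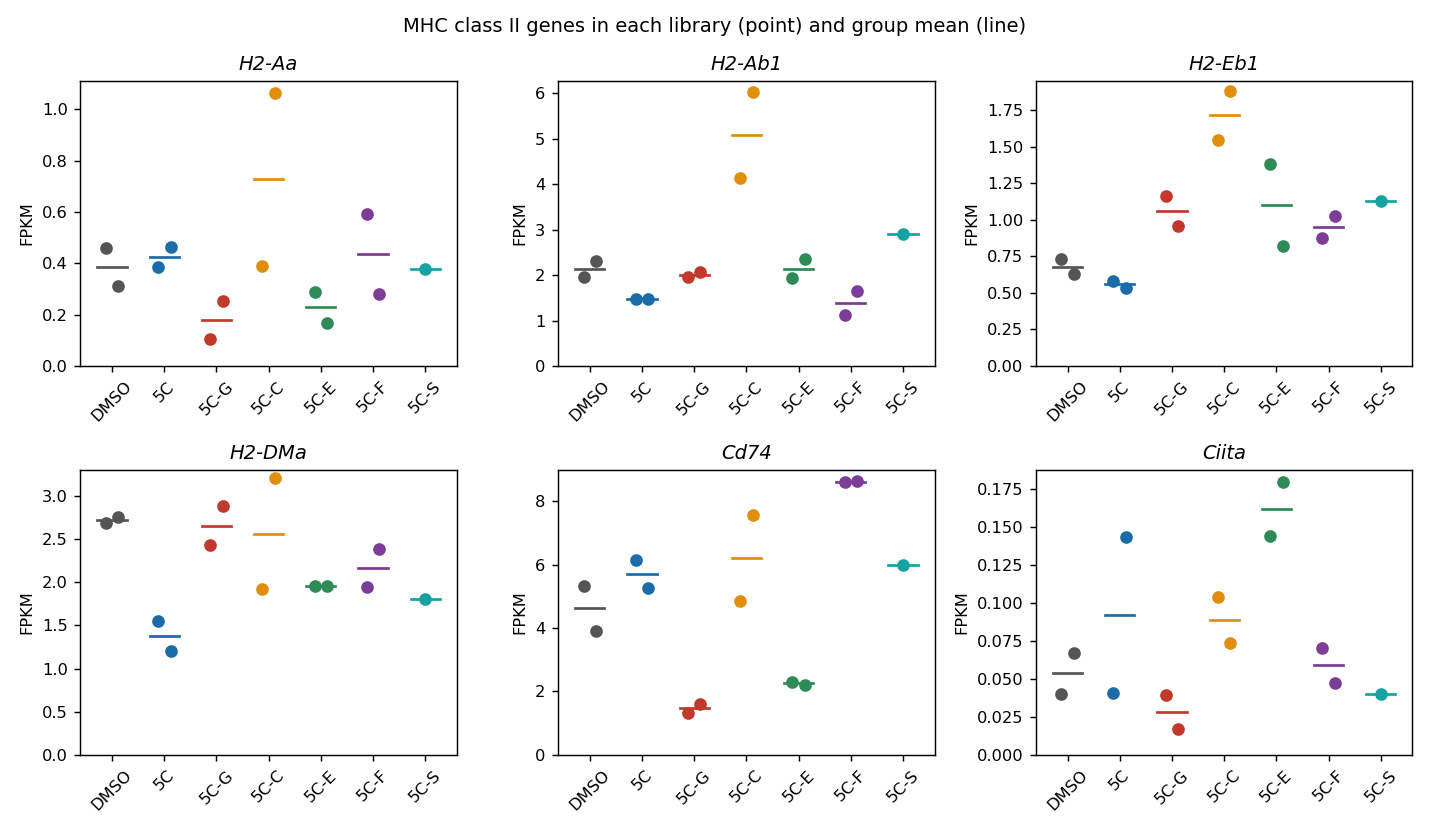
FPKM of the 6 class II genes (vertical axis, 1 panel per gene) in each library (points) of the 7 groups, with the group mean as a line. Cd74 lies between 1.31 and 2.29 in the 4 libraries of 5C-G and 5C-E and at 3.92 or above in the other 9, and H2-Ab1 is highest in the 5C-C libraries, at 4.13 and 6.02.

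Fold changes below were fitted to the counts with edgeR, and a gene was called when its Benjamini-Hochberg adjusted p over all tested genes was under 0.05 and its log2 fold change was beyond 1. Over the 9 comparisons against DMSO or 5C, with 54 tests of a member, 11 differences were called, 6 higher and 5 lower. They fell on Cd74, H2-Ab1, H2-Eb1 and H2-DMa, and H2-Aa and Ciita were called in none of these 9. The study's methods state that n counts separate biological replicates, but the labels do not say whether the libraries of a group were separate cultures. The tests measure the spread between these libraries.

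Ciita, the transactivator gene, was the least abundant member. Its FPKM was 0.0401 and 0.0673 in DMSO, 0.0406 and 0.143 in 5C, 0.104 and 0.0736 in 5C-C, 0.0704 and 0.0474 in 5C-F, and 0.0399 in 5C-S. It was 0.144 and 0.180 in 5C-E and 0.0391 and 0.0172 in 5C-G. The 5C-E libraries were the highest and a 5C-G library the lowest, but the pair of 5C libraries, 0.0406 and 0.143, spanned the means of 5C-C, 5C-F and DMSO. Against 5C the log2 fold change furthest from 0 was that of 5C-G, -1.60 ± 0.88 (SE), which was not called in edgeR's test (adjusted p = 0.201). That value moved to -0.45 without 5C library B and to -2.25 without 5C library A.

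The alpha chain gene H2-Aa was the least abundant of the chain genes. Its FPKM was 0.461 and 0.313 in DMSO, 0.384 and 0.463 in 5C, 0.592 and 0.282 in 5C-F, and 0.378 in 5C-S. It was 0.392 and 1.06 in 5C-C, 0.289 and 0.169 in 5C-E, and 0.106 and 0.252 in 5C-G. Both 5C-G and both 5C-E libraries lay below every DMSO and 5C library, and the groups 5C-C and 5C-F overlapped with both controls. The log2 fold change was -1.06 ± 0.67 for 5C-G against 5C (edgeR adjusted p = 0.27) and 0.96 ± 0.64 for 5C-C against 5C (edgeR adjusted p = 0.268). The value for 5C-C was 0.02 without 5C-C library B and 1.53 without 5C-C library A, and that for 5C-G lay between -1.94 without 5C-G library B and -0.52 without 5C-G library A.

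H2-Ab1, the beta chain gene that pairs with H2-Aa, was highest without the protein kinase D inhibitor. Its FPKM was 1.96 and 2.31 in DMSO, 1.47 and 1.47 in 5C, and 4.13 and 6.02 in 5C-C. It was 1.95 and 2.07 in 5C-G, 1.94 and 2.35 in 5C-E, 1.13 and 1.64 in 5C-F, and 2.90 in 5C-S. Both 5C-C libraries lay above all 11 others. H2-Ab1 was 3.88-fold higher in 5C-C than in 5C (log2 fold change 1.96 ± 0.32, edgeR adjusted p = 0.000222) and 2.55-fold higher than in DMSO (1.35 ± 0.31, edgeR adjusted p = 0.00255).

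H2-Eb1, another beta chain gene, was also highest in 5C-C at the RNA level, and no class II protein was measured. Its FPKM was 0.731 and 0.627 in DMSO, 0.582 and 0.536 in 5C, and 1.55 and 1.88 in 5C-C. It was 1.17 and 0.957 in 5C-G, 1.38 and 0.819 in 5C-E, 0.877 and 1.03 in 5C-F, and 1.13 in 5C-S. The 5C-C libraries were again above all others, and every library with a compound left out was above both 5C libraries. H2-Eb1 was 3.44-fold higher in 5C-C than in 5C (log2 fold change 1.78 ± 0.47, edgeR adjusted p = 0.00654) and 2.69-fold higher than in DMSO (1.43 ± 0.46, edgeR adjusted p = 0.0216). In 5C-G its log2 fold change against 5C was 1.05 ± 0.46, which was not called in edgeR's test (adjusted p = 0.109).

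H2-DMa, which encodes the alpha chain of the peptide exchange factor, was lowest in 5C. Its FPKM was 2.69 and 2.75 in DMSO, 1.56 and 1.21 in 5C, 2.43 and 2.88 in 5C-G, and 1.92 and 3.21 in 5C-C. It was 1.96 and 1.96 in 5C-E, 1.94 and 2.38 in 5C-F, and 1.81 in 5C-S. Both 5C libraries lay below all 11 others. H2-DMa was called lower in 5C than in DMSO (log2 fold change -1.05 ± 0.31, edgeR adjusted p = 0.0493), and higher in 5C-G (1.09 ± 0.31, edgeR adjusted p = 0.0146) and in 5C-C (1.07 ± 0.31, edgeR adjusted p = 0.0113) than in 5C. All 3 values stood just past the fold threshold, and each call was lost under several other settings.

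Cd74, the invariant chain gene, had the highest mean over the 13 libraries, although in 5C-G it lay below H2-DMa and H2-Ab1. Its FPKM was 5.34 and 3.92 in DMSO, 6.14 and 5.27 in 5C, 4.84 and 7.56 in 5C-C, 8.61 and 8.63 in 5C-F, and 5.99 in 5C-S. It was 1.31 and 1.61 in 5C-G and 2.29 and 2.21 in 5C-E. The 5C-G and 5C-E libraries lay below all others, and the 5C-F libraries lay above all others. Cd74 was 3.52-fold lower in 5C-G than in 5C (log2 fold change -1.81 ± 0.31, edgeR adjusted p = 0.000511) and 2.66-fold lower in 5C-E than in 5C (-1.41 ± 0.30, edgeR adjusted p = 0.0146). Against DMSO it was 3.01-fold lower in 5C-G (-1.59 ± 0.31, edgeR adjusted p = 0.00525) and 2.28-fold lower in 5C-E (-1.19 ± 0.30, edgeR adjusted p = 0.0172).

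In 5C against DMSO, the comparison of the whole cocktail with its solvent, 1 of the 6 members was called, H2-DMa, which fell. Over all tested genes 4.55% were called in this comparison. Cd74 averaged 5.71 ± 0.61 FPKM (SD, n = 2) in 5C and 4.63 ± 1.01 FPKM (SD, n = 2) in DMSO, with overlapping libraries and a fitted log2 difference of 0.23 ± 0.29 (SE, edgeR adjusted p = 0.773). The call of H2-DMa was lost when any 1 of the 4 libraries was left out (adjusted p 0.15 to 0.387, log2 fold change -1.23 to -0.89).

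Leaving out the ROCK inhibitor moved members both ways. In 5C-G against 5C, 2 of 6 members were called, Cd74 lower and H2-DMa higher, beside 13.1% of all genes. By fitted change, H2-Aa, Cd74 and Ciita were lower and H2-Ab1, H2-Eb1 and H2-DMa higher in 5C-G. The Ciita libraries of these groups overlapped on the TMM-scaled CPM of the fit but not on the FPKM scale. The median of the members' log2 fold changes was -0.24, and that of all genes was -0.01. The call of Cd74 held in every setting tried, whereas that of H2-DMa was lost without 5C library A (adjusted p = 0.0529), 5C library B (0.149) or 5C-G library B (0.138), and after a correction for GC content and gene length (log2 fold change 0.67, adjusted p = 0.096). In 5C-G against DMSO, 1 of 6 members was called, Cd74, beside 5.83% of all genes, and this call was lost without DMSO library A (log2 fold change -1.39, adjusted p = 0.0765).

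Without the protein kinase D inhibitor, beta chain genes were higher. In 5C-C against 5C, 3 of 6 members were called and all 3 were higher, H2-Ab1, H2-Eb1 and H2-DMa, beside 20.2% of all genes. The median log2 fold change of the members was 1.01 and that of all genes was 0. Cd74 had overlapping libraries and was not called, at 0.30 ± 0.29 (edgeR adjusted p = 0.468), and its sign turned without 5C-C library B (-0.10). Library B of 5C-C was above library A for 5 of the 6 members, Ciita being the exception, and the call of H2-DMa was lost without that library (log2 fold change 0.61, adjusted p = 0.189) and without 5C library B (0.94, adjusted p = 0.0977). After the correction for GC content and gene length H2-Ab1 kept its call with a lower value (1.26), and H2-Eb1 (1.14, adjusted p = 0.079) and H2-DMa (0.58, adjusted p = 0.133) were not. In 5C-C against DMSO, 2 of 6 members were called higher, H2-Ab1 and H2-Eb1, beside 22.1% of all genes. Without DMSO library A, DMSO library B or 5C-C library B the call of H2-Eb1 was lost (adjusted p 0.084 to 0.136), and after the same correction neither gene was called.

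Without ETC-1002, Cd74 was called lower against both controls. In 5C-E against 5C, 1 of 6 members was called, beside 1.96% of all genes, and in 5C-E against DMSO again 1 of 6, beside 6.09%. The Ciita libraries of 5C-E and 5C overlapped on the TMM-scaled CPM of the fit but not on the FPKM scale. The log2 fold changes of the members other than Cd74 against 5C ran from -0.95 for H2-Aa to 0.91 for H2-Eb1, and none was called. The Cd74 call against 5C was lost when any 1 of the 4 libraries was left out (adjusted p 0.0805 to 0.215), while its log2 fold change stayed between -1.47 and -1.32. The call against DMSO was lost without DMSO library A, 5C-E library A or 5C-E library B (adjusted p 0.119 to 0.271).

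Leaving out forskolin gave no call among the members. In 5C-F against 5C, edgeR's test called 0 of 6 members, beside 4.84% of all genes, with 2 members at an unadjusted p under 0.05, and DESeq2 and limma likewise called 0. In 5C-F against DMSO, edgeR's test called 0 of 6, beside 7.4% of all genes, with 1 member at an unadjusted p under 0.05, and DESeq2 and limma called 0. Cd74 stood at 8.62 ± 0.01 FPKM (SD, n = 2), above every other library, with a fitted log2 difference of 0.70 ± 0.29 against 5C (edgeR adjusted p = 0.137) and of 0.92 ± 0.29 against DMSO (edgeR adjusted p = 0.0442), the latter under the fold threshold. H2-DMa differed from 5C by 0.74 ± 0.30 (edgeR adjusted p = 0.128).

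**Figure D2:**
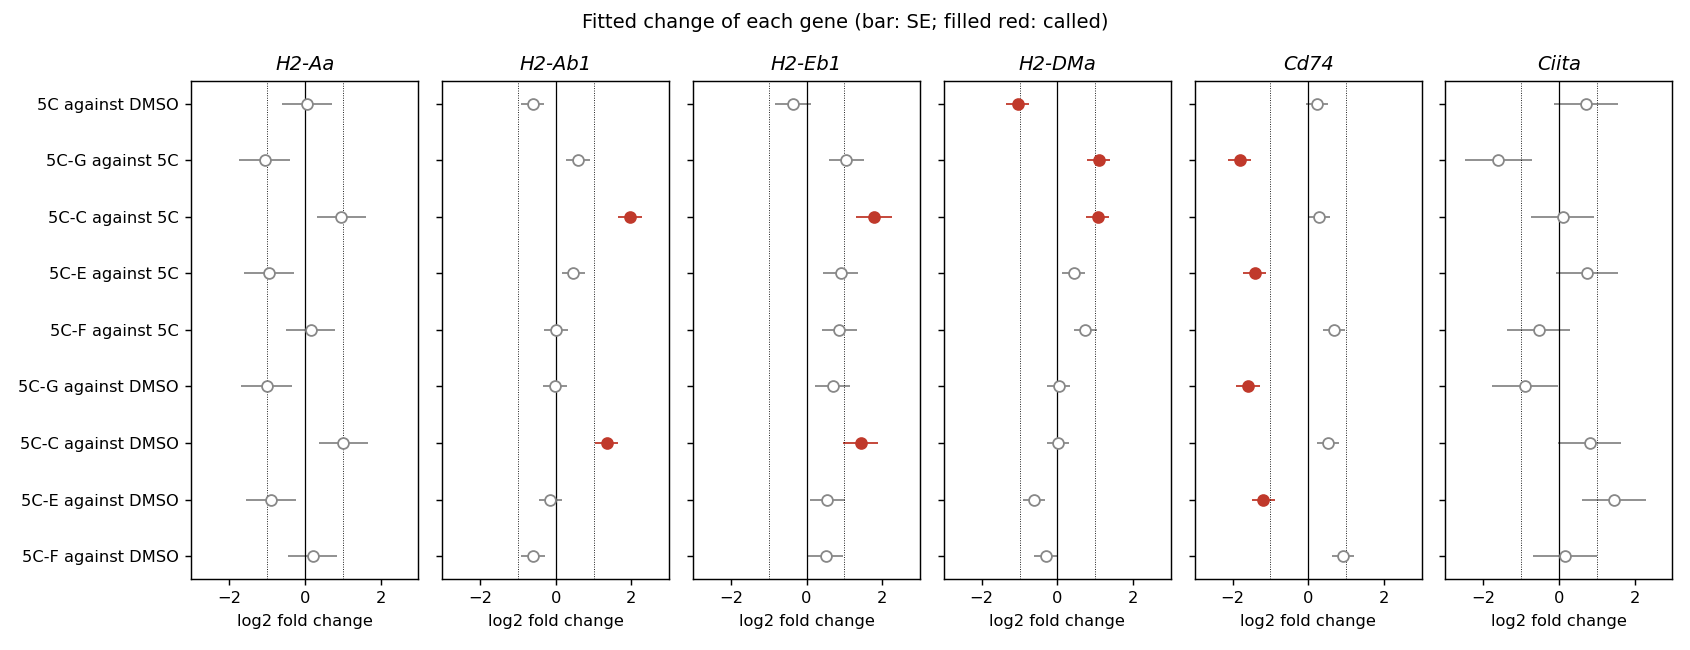
Log2 fold change (horizontal axis) of each class II gene (panels) in the 9 comparisons (rows), with the SE as a bar. Filled red points were called, dotted lines mark a log2 fold change of 1 either way, and the called points of Cd74 lie on the left while those of H2-Ab1 and H2-Eb1 lie on the right.

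The 5C-S library was compared by its values alone, with no test. H2-Ab1 at 2.90 FPKM and H2-Eb1 at 1.13 FPKM lay above both 5C libraries, at 1.93-fold and 1.95-fold the 5C mean on the log2 CPM scale. Cd74 at 5.99 FPKM lay between the 5C libraries. Over all tested genes, 15.4% differed from the 5C mean by more than 1 on the log2 scale, and none of the members did.

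The order of group means differed between the genes. From high to low, Cd74 ran 5C-F, 5C-C, 5C, DMSO, 5C-E and 5C-G, H2-Ab1 ran 5C-C, 5C-E, DMSO, 5C-G, 5C and 5C-F, and H2-DMa ran DMSO, 5C-G, 5C-C, 5C-F, 5C-E and 5C. Of the 30 pairs of neighbours over the 6 genes, 17 overlapped between libraries on the FPKM scale and 2 were called in edgeR's test. Neither share was computed over all genes. The called steps were H2-Ab1 from 5C-C to 5C-E (log2 difference 1.49, edgeR adjusted p = 0.00219) and Cd74 from DMSO to 5C-E (1.19, edgeR adjusted p = 0.0172).

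Groups that each lacked a compound were also compared with each other. Cd74 was called lower in 5C-G than in 5C-F (log2 fold change -2.51 ± 0.31, edgeR adjusted p = 4.62e-05) and 5C-C (-2.11 ± 0.31, edgeR adjusted p = 0.000203), lower in 5C-E than in 5C-F (-2.11 ± 0.31, edgeR adjusted p = 0.000156) and higher in 5C-C than in 5C-E (1.71 ± 0.30, edgeR adjusted p = 0.000864). H2-Ab1 was called higher in 5C-C than in 5C-F (1.95 ± 0.32, edgeR adjusted p = 0.000419) and 5C-E, and 5C-G lay below 5C-C (-1.37 ± 0.31, edgeR adjusted p = 0.00714). H2-Aa was called higher in 5C-C than in 5C-E (1.91 ± 0.67, edgeR adjusted p = 0.0404), a call that was lost without 5C-C library B (0.97, adjusted p = 0.43), 5C-E library A (adjusted p = 0.104) or 5C-E library B (adjusted p = 0.223). The call of H2-Ab1 between 5C-G and 5C-C was lost without 5C-C library B (adjusted p = 0.085) or 5C-G library A (adjusted p = 0.0611). After the correction for GC content and gene length the differences between 5C-C and 5C-E were 0.91 for Cd74 and 0.96 for H2-Ab1, under the fold threshold. H2-Aa in 5C-G against 5C-C stood at -2.03 ± 0.67 and was not called (edgeR adjusted p = 0.0619), though it was in 5 of the 11 fits that gave it a value.

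The members called were 2 of 6 in 5C-G against 5C-C, beside 7.36% of all genes, 1 of 6 in 5C-G against 5C-F, beside 8.03%, and 3 of 6 in 5C-C against 5C-E, beside 13.7%. They were 1 of 6 in 5C-C against 5C-F, beside 10.2%, and 1 of 6 in 5C-E against 5C-F, beside 8.74%. In 5C-G against 5C-E edgeR's test called 0 of 6, beside 9.31% of all genes, with 2 at an unadjusted p under 0.05, while DESeq2 called 1 and limma 0.

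The members differed in their profiles. Over the 13 libraries, Pearson's r of log2 CPM was over 0.5 in 4 of the 15 pairs of members. It was 0.79 for H2-Aa with Cd74, 0.73 for H2-Ab1 with H2-Eb1, and 0.52 for H2-DMa with each of H2-Ab1 and H2-Eb1. For Cd74 with H2-Ab1 it was 0.08, and for H2-DMa with Ciita it was -0.44. The ratio of Cd74 to H2-Ab1 in FPKM ran from 0.674 and 0.781 in 5C-G to 7.65 and 5.26 in 5C-F. These coefficients are descriptions, and the libraries share groups, which raises or lowers them together.

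The genes whose profiles lay nearest were found by Pearson's r over the 13 libraries among the 19878 tested genes outside the members. Among the nearest to the mean standardized profile of the 6 members were Gm38312, AC164099.2, Kcnj8, Mcm2, Chaf1b, Slpi, Mcm7, A930005H10Rik and Med9os, with r from 0.90 down to 0.86. Nearest to Ciita were Kctd14, Sp7, Cyp26b1, Atp10b and Pde4d, with r from 0.89 down to 0.81, at counts of Ciita too low to weigh them. Profiles nearest to Cd74 and H2-Ab1 were added after values had been seen. Gckr (r = 0.95), the regulator of glucokinase, Trf (0.94), transferrin, Amdhd1 (0.93), Aldh1l1 (0.93) and Tfr2 (0.92), the hepatocyte transferrin receptor, lay nearest to Cd74. Prtn3 (0.95), Rpa2 (0.94), Pdlim4 (0.94), B230311B06Rik (0.93) and Bcs1l (0.92) lay nearest to H2-Ab1.

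The members were set beside markers of the cell types that usually carry class II. The summed FPKM of 14 macrophage genes was 5197 and 5268 in DMSO and 5312 and 7516 in 5C-G. It was 558 and 647 in 5C, 752 and 888 in 5C-E, 668 in 5C-S, 1056 and 1751 in 5C-C, and 1772 and 2116 in 5C-F. In 5C against DMSO 12 of these 14 genes were called lower, and in 5C-G against 5C 12 of 14 were called higher, beside 4.55% and 13.1% of all genes. The list was mixed in 5C-C against 5C, with 6 called higher and 1 called lower, beside 20.2% of all genes. There 10 of the 14 fitted changes were positive and 4 were negative. Cd74 and the macrophage sum thus went in opposite directions between 5C and 5C-G, and the Cd74 libraries of DMSO and 5C overlapped although their macrophage sums did not. In 5C-F against 5C both were higher, with 10 of the 14 macrophage genes called higher, beside 4.84% of all genes, and Cd74 at 0.70 without a call. H2-DMa was called lower in 5C than in DMSO and higher in 5C-G than in 5C, as the macrophage genes were. H2-Ab1 and H2-Eb1 had the same signs without a call, with log2 fold changes of -0.61 and -0.36 in 5C against DMSO and 0.59 and 1.05 in 5C-G against 5C. After the correction for GC content and gene length the values in 5C-G against 5C were 0.02 for H2-Ab1 and 0.54 for H2-Eb1. In 5C-C the library with the higher macrophage sum, B, also had the higher H2-Ab1, H2-Eb1, H2-DMa and Cd74. The part of macrophages in these values of H2-DMa, H2-Ab1, H2-Eb1 and Cd74 was not tested. In bulk RNA, fewer cells of a type and less RNA per cell cannot be told apart.

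**Figure D3:**
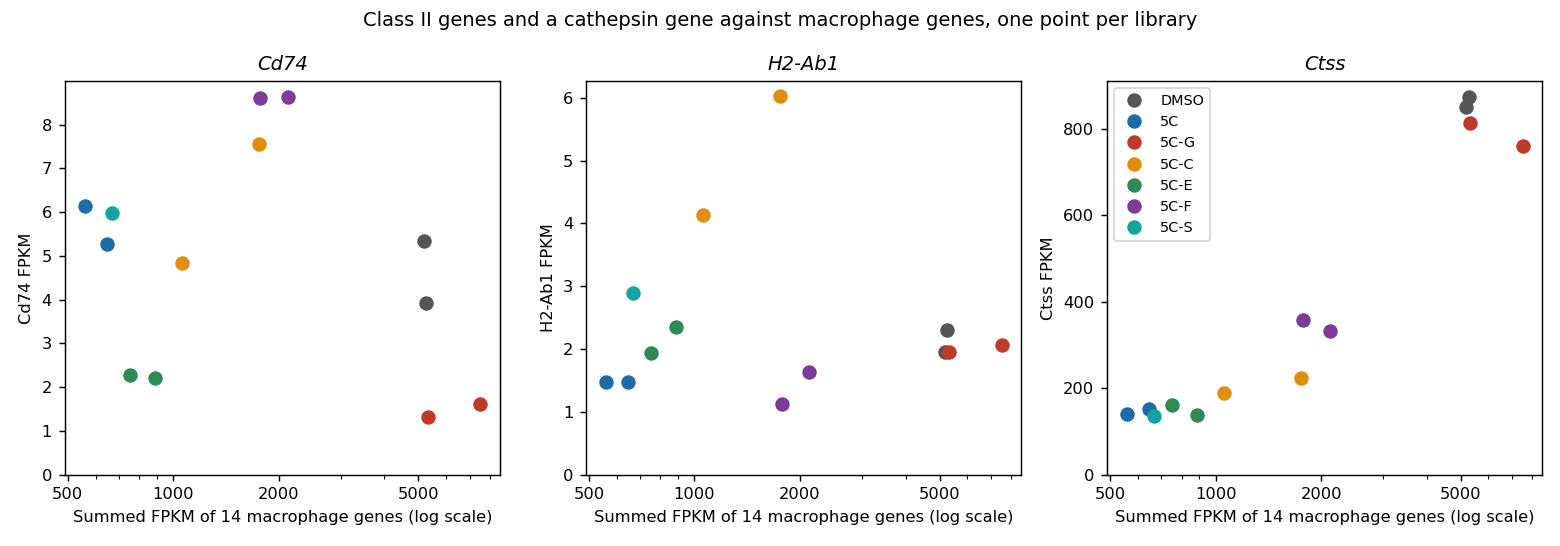
FPKM of Cd74, H2-Ab1 and the cathepsin gene Ctss (vertical axes) against the summed FPKM of 14 macrophage genes (horizontal log axis), with 1 point per library. Ctss is 851 and 874 in DMSO and 814 and 760 in 5C-G, above the other 9 libraries, whereas Cd74 is lowest in the 5C-G libraries at the right, at 1.31 and 1.61.

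Defining markers of dendritic, B and T cells were low. Of 9 dendritic cell genes in the table, Flt3 and Cd209a were listed at 0 in 12 of the 13 libraries, Clec9a and Xcr1 never passed 0.0834 FPKM, while Clec10a, which macrophages also express, ran from 0.627 to 13.4. Zbtb46, a dendritic cell transcription factor gene, ran from 0.941 to 2.52 FPKM and averaged 2.50 in 5C and 1.65 in DMSO. The dendritic cell sum was 13.5 and 14.8 in DMSO, 3.64 and 3.96 in 5C, 11.8 and 14.7 in 5C-G, 7.08 and 6.53 in 5C-C, 3.83 and 3.69 in 5C-E, 3.28 and 4.60 in 5C-F, and 3.02 in 5C-S, and Clec10a made up most of it in DMSO and 5C-G. The B cell sum over 5 genes stayed between 0.0355 and 0.935 FPKM, with Cd79b listed at 0 in 12 libraries and Pax5 in 10. The T and NK cell sum over 3 genes stayed at or under 0.122 FPKM. Of the endothelial genes, Pecam1 and Cdh5 stayed at or under 0.262 FPKM, but Kdr ran from 3.10 to 23.0, Stab1 from 4.71 to 78.4 and Lyve1 from 2.82 to 77.3. The endothelial sum over 7 genes ran from 18.1 to 168 and was highest in DMSO, where Stab1 averaged 77.3 and Lyve1 71.6. These genes averaged 5.19 and 2.95 in 5C and 51.9 and 38.6 in 5C-G, moving in the same directions as the macrophage sums. Kdr averaged highest in 5C-E, at 22.1, so the sum does not rank endothelial cells between groups. The part of dendritic, B, T and endothelial cells in the class II values was not tested.

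The hepatocyte sum over 8 genes was 11858 and 10634 FPKM in DMSO, 10933 and 10884 in 5C, 21518 and 17093 in 5C-F, and 7045 in 5C-S. It was 6409 and 7712 in 5C-G, 4962 and 4550 in 5C-C, and 3539 and 3036 in 5C-E. Alb, at 9431 FPKM on average in 5C, made up most of this sum. In 5C-G against 5C 5 of the 8 genes were called lower and 1 higher, beside 13.1% of all genes. The higher gene was Apoa1, at 893 FPKM on average in 5C and 2481 in 5C-G. The 5C-F libraries were highest for the hepatocyte sum and for Cd74, and the 5C-G and 5C-E libraries were low for both. The 5C-C libraries, however, had a low hepatocyte sum with Cd74 at 4.84 and 7.56. The part of hepatocytes in the Cd74 values was not tested. The cholangiocyte sum over 5 genes ran from 1456 in 5C-S to 3422 in 5C-F A, and the stellate and fibroblast sum over 8 genes from 467 in 5C-F A to 1855 in 5C-G B.

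The accessory genes of the class II pathway numbered 10, of which 9 were in the table and 7 were tested. H2-Oa and H2-Ob, which encode the H2-DM antagonist, had at most 0.0358 FPKM. H2-DMb1 and H2-DMb2 encode beta chains that pair with the product of H2-DMa, and H2-DMb1 stood at 20.9 and 19.6 FPKM in 5C-C against 7.57 and 8.95 in 5C. In 5C-C against 5C 3 of 7 were called higher, beside 20.2% of all genes. They were H2-DMb2 (log2 fold change 1.83), Ifi30 (1.54), the lysosomal thiol reductase, and H2-DMb1 (1.46). H2-DMb1 and H2-DMb2 have similar sequences, so reads could be split between them.

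Several accessory genes that act in endosomes were lower in 5C than in DMSO and higher in 5C-G than in 5C. In 5C against DMSO 4 of 7 accessory genes were called lower, Marchf1 (-2.65), a ubiquitin ligase that removes class II from the surface, Ctss (-2.63), the cathepsin that trims the invariant chain, Ifi30 (-1.38) and Lgmn (-1.04), the asparagine endopeptidase. Over all genes 4.55% were called there, and limma called 3 of the 7. In 5C-G against 5C 5 of 7 were called higher, led by Ctss (2.56), Ifi30 (1.90) and Marchf1 (1.62), beside 13.1% of all genes. Limma called 3 of the 7 in this comparison. Ctss was at 851 and 874 FPKM in DMSO and at 140 and 153 in 5C, so that Cd74 amounted to 0.00627 and 0.00448 of the Ctss level in DMSO and to 0.0438 and 0.0344 of it in 5C. Ctss, Ifi30 and Lgmn are known to be abundant in macrophages, and the macrophage sums given above move with them, whose part in these differences was not tested.

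In 5C-F against 5C 1 was called higher, Ctss (1.34), and in 5C-G against DMSO 1 was called lower, Marchf1 (-1.04). Over all genes 4.84% and 5.83% were called in these comparisons, and limma called 1 and 0 of the list. In 5C-E and in 5C-F against DMSO 2 were called lower, Ctss and Marchf1, and in 5C-C against DMSO these same 2 were lower while H2-DMb1 and H2-DMb2 were higher. Over all genes 6.09%, 7.4% and 22.1% were called in 5C-E, 5C-F and 5C-C against DMSO. In 5C-E against 5C edgeR's test called 0 of 7, with 4 at an unadjusted p under 0.05, and DESeq2 and limma called 0. The median log2 fold changes of the list were -1.04 in 5C against DMSO, 1.44 in 5C-G against 5C and 0.88 in 5C-C against 5C, where those of all genes were 0.01, -0.01 and 0.

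Genes of the CIITA enhanceosome, the DNA-binding factors Rfx5, Rfxap, Rfxank, Nfya, Nfyb, Nfyc and Creb1, were all tested and were measured at 0.682 to 12.4 FPKM. Rfx5, the DNA-binding subunit of RFX, had 3.13 and 3.16 FPKM in 5C, 1.20 and 0.682 in 5C-C, 1.09 and 1.00 in 5C-F, and 1.80 and 0.722 in 5C-G. It was called lower against 5C in 5C-C (log2 fold change -1.59), 5C-F (-1.49) and 5C-G (-1.22). In 5C-F and in 5C-G this was the only call, 14.3% of the list beside 4.84% and 13.1% of all genes. Limma called 1 of the 7 in 5C-C and in 5C-F against 5C, and 0 in 5C-G against 5C. Creb1 was called lower in 5C-C (-1.06), so that 28.6% of the list was called in 5C-C against 5C, beside 20.2% of all genes. No enhanceosome gene was called higher in any of the 9 comparisons. In 5C against DMSO and in 5C-E against 5C edgeR's test called 0 of 7, with 0 at an unadjusted p under 0.05, and DESeq2 and limma called 0.

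Against DMSO, edgeR's test called 0 of the 7 enhanceosome genes in 5C-F, 5C-E, 5C-C and 5C-G, with 2, 1, 4 and 4 at an unadjusted p under 0.05, and DESeq2 and limma called 0 in each.

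Among the genes of interferon gamma signalling, 8 of 9 were in the table and were tested. Irf8, a transcription factor of myeloid cells, carried most of the calls, at 5.85 FPKM on average in DMSO, 0.716 in 5C and 5.40 in 5C-G. It was called lower in 5C than in DMSO (log2 fold change -3.10) and higher than in 5C in 5C-G (3.06), 5C-F (1.41) and 5C-C (1.09). The macrophage sums given above were likewise lower in 5C than in DMSO and higher in these 3 groups than in 5C. In 5C-C, however, 4 of the 14 macrophage genes had negative fitted changes against 5C. The part of macrophages in the Irf8 values was not tested. Socs1, the feedback inhibitor of the pathway, was called higher than in 5C in 5C-G (2.04) and in 5C-C (1.83). The called share of the list was 25% in 5C-G and in 5C-C against 5C, beside 13.1% and 20.2% of all genes. It was 12.5% in 5C against DMSO and in 5C-F against 5C, beside 4.55% and 4.84%. Limma called 1 of the 8 in 5C-G against 5C, and 0 in 5C-C and in 5C-F against 5C. The receptor genes Ifngr1 and Ifngr2, the kinase genes Jak1 and Jak2, and Irf1, which acts upstream of Ciita, were called in none of the 9 comparisons by edgeR's test. Irf8 was also lower than in DMSO in 5C-C (-2.02), 5C-E (-2.51) and 5C-F (-1.70). It was the only call of the list in each, 12.5% beside 22.1%, 6.09% and 7.4% of all genes. In 5C-E against 5C and in 5C-G against DMSO edgeR's test called 0 of 8, with 2 and 3 at an unadjusted p under 0.05, and DESeq2 and limma called 0 in both.

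Genes of MHC class I presentation, which loads cytosolic peptides and is used by nearly all cells, ranged widely in level, with B2m at 597 to 2098 FPKM and H2-D1 at 298 to 691 FPKM, but Tap1 at 3.01 to 7.11 and Nlrc5 at 0.218 to 0.830. All 12 were tested. In 5C-C against 5C 3 were called higher, the immunoproteasome gene Psmb8 (log2 fold change 1.39), the peptide transporter gene Tap1 (1.19) and the chaperone gene Calr (1.16), and Erap1, the trimming peptidase, was called lower (-1.41), in all 33.3% of the list beside 20.2% of all genes. In 5C-G against 5C 2 were called higher, Psmb8 (1.45) and H2-D1 (1.12), 16.7% of the list beside 13.1% of all genes, a share near the background. Limma tested 11 of the list and called 0 in 5C-G against 5C and 1 in 5C-C against 5C. In 5C-C against DMSO Psmb8 (1.18) and Calr (1.03) were higher and Erap1 (-1.36) and Nlrc5 (-1.29), the class I transactivator gene, were lower. They were 33.3% of the list beside 22.1% of all genes, and limma called 1. Single calls against DMSO were Psmb8 higher in 5C-G (1.25), B2m lower in 5C-E (-1.01) and H2-K1 higher in 5C-F (1.11). Each was 8.33% of the list, beside 5.83%, 6.09% and 7.4% of all genes, and limma called 0, 0 and 1.

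H2-K1 thus stood highest in 5C-F, as Cd74 did, at 283 FPKM on average against 171 in 5C and 134 in DMSO. In 5C against DMSO, 5C-E against 5C and 5C-F against 5C edgeR's test called 0 of the 12 class I genes, with 2, 4 and 4 at an unadjusted p under 0.05, and DESeq2 and limma called 0 in each. The class I sum lay between 2263 and 3793 FPKM in every library, where the class II sum lay between 7.01 and 19.8.

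The list of costimulatory and coinhibitory ligands and receptors held 6 genes, of which 5 were tested. Cd80, Cd86 and Icosl encode costimulatory ligands, Cd40 a receptor of antigen-presenting cells, and Cd274 and Pdcd1lg2 the inhibitory ligands of PD-1. Their FPKM stayed at or under 2.15. Cd86 had 2.02 FPKM on average in DMSO, 0.767 in 5C and 1.87 in 5C-G, and it was called lower in 5C than in DMSO (log2 fold change -1.47) and higher in 5C-G than in 5C (1.43). Cd80 was also called higher in 5C-G than in 5C (1.56). The called share of the list was 20% in 5C against DMSO and 40% in 5C-G against 5C, beside 4.55% and 13.1% of all genes. Limma tested 3 of the list and called 0 in both comparisons. The macrophage sums moved in the same directions in both comparisons, and their part in these values was not tested. Against DMSO, Cd86 was lower in 5C-C (-2.31), 5C-E (-2.23) and 5C-F (-1.21), Icosl was lower in 5C-C (-1.55) and 5C-E (-1.38), and Cd274 was lower in 5C-C (-1.35). The shares called in 5C-C, 5C-E and 5C-F against DMSO were 60%, 40% and 20%, beside 22.1%, 6.09% and 7.4% of all genes. Limma called 1, 1 and 0 in them. In 5C-C, 5C-E and 5C-F against 5C edgeR's test called 0 of 5, with 2, 1 and 0 at an unadjusted p under 0.05, in 5C-G against DMSO it called 0 with 2 at an unadjusted p under 0.05, and DESeq2 and limma called 0 in all 4.

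**Figure D4:**
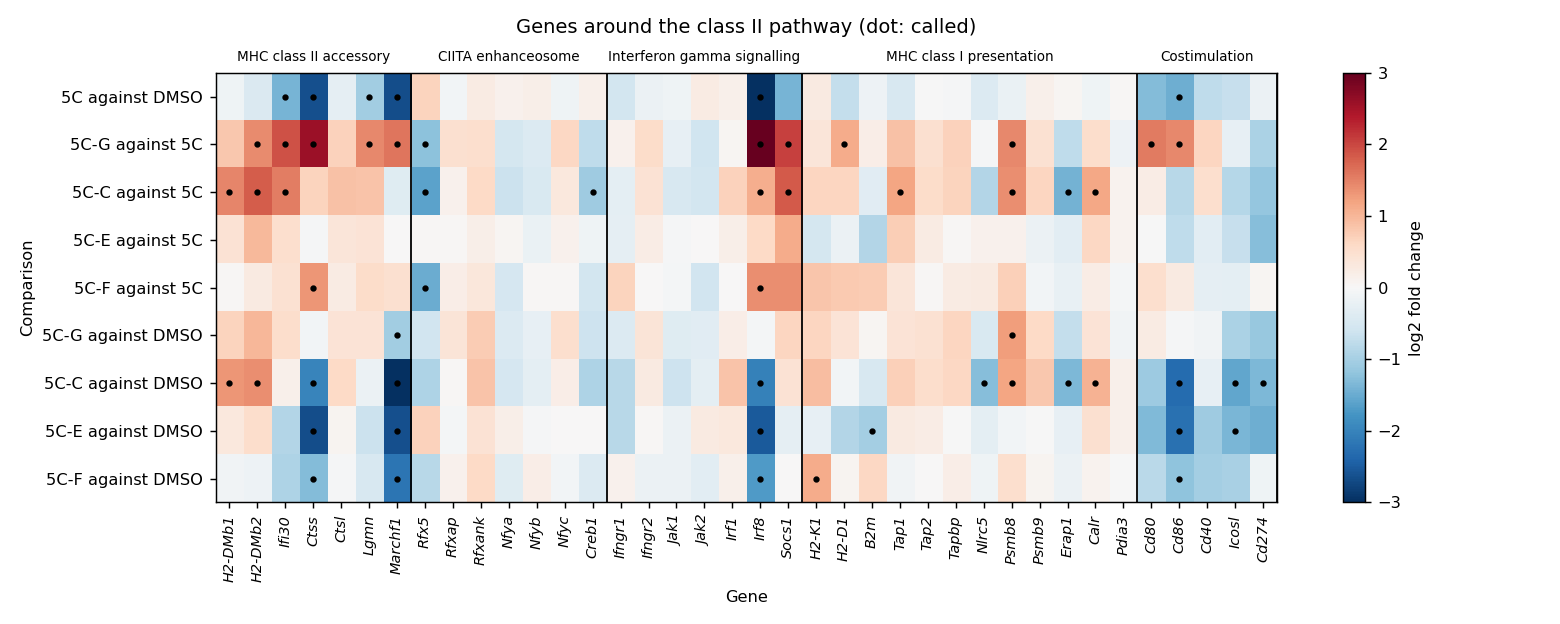
Log2 fold changes (colour) of genes around the class II pathway (columns, in 5 lists) in the 9 comparisons (rows), with a dot where the gene was called. Ctss, Ifi30, Marchf1 and Irf8 are lower in 5C than in DMSO and higher in 5C-G than in 5C, and Rfx5 is lower than in 5C where G, C or F was left out.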

How the data were processed

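The authors isolated RNA from cultured dHeps, prepared libraries with the NEBNext Ultra RNA kit and sequenced them as paired-end reads on a NovaSeq instrument. They deposited a table of whole-number counts per gene, not normalized, and a table of FPKM, in which the authors had divided the counts by gene length and library total. The submitters' processing notes name GRCm39, featureCounts, Subread and DESeq2. Which aligner, gene annotation and strand setting they used is not given in the sources used here.

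Groups came from the sample labels. Table columns name the group but not the sample, so letters A and B follow column order and pair nothing. Counts of 13 libraries were fitted with edgeR 4.0.16 in R 4.3.3 (TMM, filterByExpr with a minimum count of 10, quasi-likelihood test, 7 group means, 6 residual degrees of freedom). Benjamini-Hochberg adjustment ran over 19884 genes, and calls needed an adjusted p under 0.05 and a log2 fold change beyond 1. The study's methods name DESeq, for which edgeR stood in. SE is the log2 fold change divided by the root of F. The fit was tested on simulated counts. The alternatives used DESeq2 1.42.0, limma 3.58.1 on log2(FPKM + 1) with at least 1 FPKM in 2 libraries or no filter and on log2(FPKM + 0.1), total counts, no count filter, only the 2 groups compared, a correction for GC content and length (GC was known for 99.1% of genes), and 1 library left out. Alternatives for comparisons between groups that each lack a compound were added after seeing the data. Genes of the lists were evaluated with DESeq2 and with limma on log2(FPKM + 1) only. The GC and length correction and the other alternatives were evaluated for the members alone.

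The members and gene lists were chosen with earlier results of these data known. Named were the 6 members, the list genes with the largest called changes, and the 10 nearest profiles to the members' mean and 5 to Ciita. Further called list genes, and the profiles nearest to Cd74 and H2-Ab1, were named after their values were seen. Promoters and positions came from GRCm39 with GENCODE annotation. The number of per-sample columns not used was 0. Reads carry no molecular identifiers, so counting error is a lower limit. Some genes of the lists and of the nearest profiles are not reported here.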

Additional observations from a re-analysis of the deposited data

How the results depend on the processing

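Of the called differences of members, 164 values under an alternative kept direction and call, 62 kept the direction and lost the call, and 0 reversed. Cd74 in 5C-G against 5C (log2 fold change -2.55 to -1.44) and H2-Ab1 in 5C-C against 5C (1.26 to 2.24) were called under every alternative run. Cd74 in 5C-G against 5C-C and 5C-F and in 5C-E against 5C-F, and H2-Ab1 in 5C-C against 5C-F, were likewise called throughout. Of the differences not called, 68 values reversed, 7 became calls and 719 kept sign and status. Among those given in the text, Cd74 in 5C-C stood at -0.605 against 5C and at -0.243 against DMSO after the correction for GC content and length, and from -0.100 to 0.617 against 5C when 1 library was left out, lowest without 5C-C library B.

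The number of members called in 5C against DMSO, 1 in the reported fit, was 0 with total counts, with the GC and length correction, in limma on log2(FPKM + 1), with and without a filter, and on log2(FPKM + 0.1), and whenever 1 library was left out. In 5C-G against 5C it was 2 and became 1 under those same 5 settings, and 1 to 2 with a library left out. In 5C-C against 5C it was 3 and became 1 with the GC and length correction and in limma on log2(FPKM + 1), with and without a filter. Under these settings the count in 5C-C against DMSO went from 2 to 0, and it was 1 to 2 with a library left out. In 5C-E against 5C it went from 1 to 0 in limma on log2(FPKM + 1) without a filter and with any library left out. In 5C-E against DMSO it went from 1 to 0 in all 3 limma fits, and was 0 to 1 with a library left out. In 5C-G against DMSO it was 0 to 1 with a library left out. Between groups lacking a compound, settings chosen after seeing the data, the count in 5C-C against 5C-E went from 3 to 1 with the GC and length correction and in limma on log2(FPKM + 1), with and without a filter. In 5C-G against 5C-C it went from 2 to 1 in both those limma fits, to 3 in DESeq2, with every gene with a count and with the GC and length correction, and was 1 to 3 with a library left out. In 5C-G against 5C-E it went from 0 to 1 in DESeq2 and with the GC and length correction. The cause of these shifts was not tested, except that a pseudocount of 1 compresses fold changes of genes near 1 FPKM, and that the FPKM filter removes H2-Aa and Ciita. Total counts moved the median of all genes from -0.01 to -0.14 in 5C-G against 5C, from 0 to -0.15 in 5C-C against 5C, from -0.01 to -0.11 in 5C-F against 5C, from 0.01 to 0.16 in 5C-E against DMSO, from -0.0044 to -0.20 in 5C-G against 5C-E, from 0 to -0.23 in 5C-C against 5C-E and from 0.01 to 0.18 in 5C-E against 5C-F. No paired analysis was possible because the sample labels share no replicate number between groups, and the running numbers of the columns cannot be matched to the labels with certainty. Counts of 6 to 56 for Ciita limit what could be detected.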
